A study of Mus musculus with 6 samples.

Results

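The genes described are the EGF receptor Egfr and 7 ligands of the epidermal growth factor (EGF) family, Areg, Ereg, Hbegf, Btc, Tgfa, Epgn and Nrg1, in primary cancer-associated fibroblasts (CAFs) depleted or not of Stat3. They were taken by symbol as ligands that could act on Her2-driven tumour cells, together with their receptor. All 8 symbols were among the 24015 of the count table, and all 8 were among the 13284 genes that passed the filter on low counts. The CAFs came from mammary tumours of BalbC mice with the NeuT transgene, an activated form of the rat Her2/neu gene, so the cells of both groups come from Her2-driven tumours. Both groups received nanoparticles at 1 ug/mL for 72 hours, loaded with control siRNA in 3 samples and with anti-Stat3 siRNA in the other 3. The comparison asks which transcripts depend on STAT3, which transmits signals of the IL-6 family of cytokines to the nucleus. The labels do not say how many animals or cultures the samples came from, so p-values measure only how much these samples vary, and that variation may be technical.

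EGF family ligands are made as membrane-bound precursors and are released by proteases of the ADAM family. Amphiregulin (Areg), transforming growth factor alpha (Tgfa) and epigen (Epgn) bind the EGF receptor. Epiregulin (Ereg), heparin-binding EGF-like growth factor (Hbegf) and betacellulin (Btc) bind the EGF receptor and also ERBB4, while neuregulin 1 (Nrg1) binds ERBB3 and ERBB4. Her2, encoded by Erbb2, binds no ligand of its own and signals in pairs with the other ERBB receptors, which is why ligands from the stroma are of interest in Her2-driven mammary tumours.

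Libraries held 12998168 to 18683852 counts. The 2 groups share replicate numbers, and same-numbered samples of the 2 groups varied together, so they are called a pair. Fibroblast markers were high in all 6 samples (Col1a1 at 7417 to 23429 CPM, the count divided by the TMM-scaled library size, put on 1 scale for all libraries), apart from Fap, Lum and Fbln1, which were at 3.13 to 29.4, 4.67 to 104 and 34.6 to 83.2 CPM. The 14 fibroblast markers summed to 37770 and 42865 CPM in the control and anti-Stat3 samples of pair 1, below the 91825 and 65261 CPM of pair 2 and the 105554 and 78399 CPM of pair 3. Most of that sum was Col1a1, Col1a2, Col3a1 and Fn1, and not all 14 markers had that order. Postn was highest in pair 1, at 4112 and 4682 CPM, against 3705 and 4218 CPM in pair 2. S100a4 and Vim were lowest in pair 2, at 145 and 169 CPM and at 1172 and 1239 CPM. The pairs also differed in markers of other cells. The summed level of 19 macrophage markers was 48.1 and 43.4 CPM in the control and anti-Stat3 samples of pair 1, 1803 and 1733 CPM in pair 2, and 2491 and 2875 CPM in pair 3. C1qa, C1qb, C1qc, Spi1 and Cx3cr1 were at 0 to 0.19 CPM in pair 1. The summed level of 20 epithelial markers was 458 and 385 CPM in pair 1, 2107 and 1767 CPM in pair 2, and 96.8 and 87.5 CPM in pair 3, with Krt5 at 0 to 0.16 CPM throughout. Lcn2 was the largest part of that sum. It had 230 and 164 CPM in pair 1, 1069 and 720 CPM in pair 2, and 29.8 and 16.4 CPM in pair 3. The median of the 19 that passed the filter was 8.18 and 8.02, 27.7 and 24.5, and 3.66 and 3.61 CPM in pairs 1 to 3. Of 10 endothelial markers, the summed level was 12.8 to 43.6 CPM, with Cldn5 at 0 in 5 of 6 samples. Kdr had 21.4 and 30.3 CPM in pair 2 and 10.4 and 11.2 CPM in pair 3, and Vwf 8.87 and 10.5 CPM in pair 3. Esam was highest in pair 1, at 4.53 and 3.26 CPM. It had 0.79 and 0.61 CPM in pair 2 and 0.24 and 0.23 CPM in pair 3. Tek was highest in pair 1 among control samples and in pair 3 among anti-Stat3 samples. In bulk RNA, fewer cells of a type and less RNA per cell cannot be told apart. Stat3 itself had 220, 359 and 405 CPM in control samples 1 to 3 and 34.7, 81.9 and 78.9 CPM in anti-Stat3 samples 1 to 3, at 15.8%, 22.8% and 19.5% of the control level in pairs 1 to 3. Stat3 missed the threshold in edgeR without a block (log2 change -2.33 ± 0.41 SE, adjusted p = 1.00) and fell with the pair as a block (-2.38, adjusted p = 0.0027).

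Epgn, Ereg, Areg and Btc are neighbours. In the RefSeq annotation of GRCm38.p6 they follow each other in this order among the protein-coding genes of chromosome 5, while Tgfa, Nrg1, Egfr and Hbegf lie on other chromosomes. The table of promoter sequences used here matched 5 of the 8 genes (Areg, Btc, Epgn, Tgfa and Egfr). Areg, Epgn, Btc and Tgfa had low levels that differed between pairs. The 250 bases upstream of the annotated start are shown for the 3 neighbours Areg, Epgn and Btc, and not for Tgfa or Egfr. They are chr5:91139349-91139598 (plus strand) for Areg, chr5:91027267-91027516 (plus strand) for Epgn and chr5:91402995-91403244 (minus strand) for Btc, printed 5′ to 3′ along the gene, with the cyclic AMP response element in capitals.
Areg: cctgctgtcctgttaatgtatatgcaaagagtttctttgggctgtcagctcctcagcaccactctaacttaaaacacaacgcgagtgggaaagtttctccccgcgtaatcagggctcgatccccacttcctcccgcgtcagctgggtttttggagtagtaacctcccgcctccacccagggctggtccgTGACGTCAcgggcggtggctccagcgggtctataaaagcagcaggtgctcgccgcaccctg
Epgn: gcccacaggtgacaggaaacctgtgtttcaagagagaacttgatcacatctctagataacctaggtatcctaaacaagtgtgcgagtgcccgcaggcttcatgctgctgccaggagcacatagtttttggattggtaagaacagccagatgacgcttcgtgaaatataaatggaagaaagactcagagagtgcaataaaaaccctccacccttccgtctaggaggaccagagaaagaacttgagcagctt
Btc: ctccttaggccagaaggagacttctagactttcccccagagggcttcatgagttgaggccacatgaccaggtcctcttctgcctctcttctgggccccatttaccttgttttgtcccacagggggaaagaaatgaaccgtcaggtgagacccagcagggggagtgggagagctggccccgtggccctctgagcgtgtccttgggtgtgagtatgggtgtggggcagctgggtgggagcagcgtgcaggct
Both strands were searched for the STAT motif TTCNNNGAA, the cyclic AMP response element TGACGTCA the AP-1 motif TGANTCA and an NF-kB motif. The only match to these 4 motifs in the 5 windows was the cyclic AMP response element in the Areg window, which begins 61 bases upstream of the start. Among all 32851 promoter windows of the same length, 1.55% held that element. The STAT motif was in 0 of the 5 windows and in 7.02% of all windows, and the AP-1 motif in 0 of the 5 and in 6.75% of all, and the NF-kB motif in 0 of the 5 and in 1.41% of all. The shorter motif TGACG, which the full element contains, was in 3 of the 5 windows (Areg, Btc and Epgn) and in 17.8% of all. A match is a description of the letters, and its absence from 250 bases says nothing about binding elsewhere.

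Anti-Stat3 siRNA was followed by no common direction over the 3 pairs in any of the 6 ligands of the EGF receptor or in Nrg1, and the amounts of most ligands were different far more between pairs than between the siRNAs. With edgeR's quasi-likelihood test on the group alone, 0 of the 8 genes were called at an adjusted p of 0.05, where 0% of all tested genes were. When the pair was added as a block, 0 of 8 passed in edgeR (0.0602% of all genes), in limma-voom (0.0602%) and in DESeq2 (1.66%). Blocked DESeq2 gave Epgn no adjusted p, so Epgn could not pass there. At an unadjusted p under 0.05 the members also numbered 0 of 8 in each of these 4 fits, against 1.77% of all genes in edgeR with the group alone and 10.8%, 11.2% and 8.05% in the 3 blocked fits, in the same order. The median log2 change of the 8 genes in edgeR with the group alone was -0.33, against -0.0028 over all tested genes. By pair, the medians were -0.51, 0.18 and -0.32 for the 8 genes and 0.0011, -7.9e-06 and 0.012 for all.

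**Figure D1:**
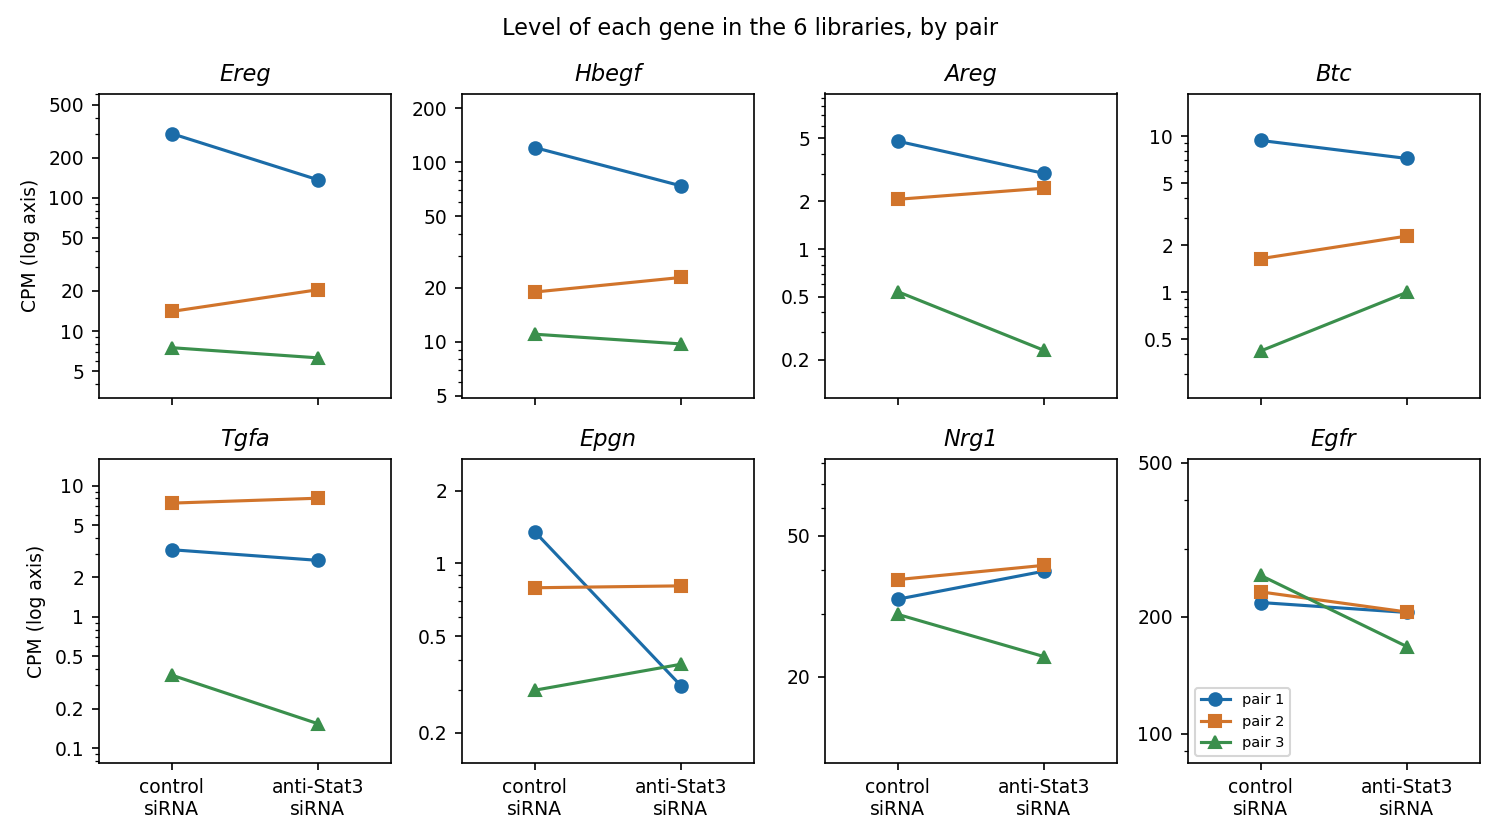
Level of each of the 8 genes (CPM, log axis) in the 3 control and 3 anti-Stat3 siRNA libraries, with 1 panel per gene, 1 point per library and a line joining the libraries of a pair. Pair 1 lies far above the others for Ereg, Hbegf and Btc, pair 2 is highest for Tgfa, and the 6 points lie close together for Nrg1 and Egfr.

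Ereg, the epiregulin gene, was the most variable. Control samples 1 to 3 held 303, 14.0 and 7.49 CPM, and anti-Stat3 samples 1 to 3 held 137, 20.4 and 6.29 CPM. Both samples of pair 1 thus lay above all samples of the other pairs, and the groups overlapped. The anti-Stat3 level was 45.1% of the control level in pair 1 (4484 and 2180 counts in control and anti-Stat3 samples), 146% in pair 2 and 83.9% in pair 3. The counting intervals of the ratio were 0.428 to 0.474, 1.23 to 1.72 and 0.627 to 1.12 (95%, exact binomial, counting error only), so the opposite moves of pairs 1 and 2 were beyond counting error. Its log2 change in edgeR without the block was -0.99 ± 1.61 (SE, adjusted p = 1.00). It was 2.33 without control sample 1 and -3.02 without anti-Stat3 sample 1, so the samples of pair 1 set its sign and size. The 3 pair changes averaged -0.29 ± 0.84 (SD, n = 3), and the log2 change in blocked edgeR without pair 1 was 0.20.

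Hbegf, whose product binds heparin and the EGF receptor, followed the same order. Control samples held 121, 18.9 and 11.0 CPM, and anti-Stat3 samples 74.0, 22.8 and 9.74 CPM. It was lower in pair 1, at 61.2% of control, higher in pair 2, at 121%, and at 88.3% in pair 3, where the counting interval of the ratio, 0.699 to 1.11, included 1. The edgeR log2 change with the group alone was -0.50 ± 1.07 (SE, adjusted p = 1.00), and 1.24 without control sample 1. The 3 pair changes averaged -0.21 ± 0.49 (SD, n = 3).

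Areg, the amphiregulin gene, was low. Control samples held 4.80, 2.06 and 0.54 CPM, and anti-Stat3 samples 3.01, 2.42 and 0.23 CPM, from 71, 39 and 9 counts and 48, 36 and 3 counts. The order of the pairs was that of Ereg and Hbegf in both groups. The ratio was 0.627 in pair 1 (interval 0.425 to 0.916) and 1.17 in pair 2 (0.726 to 1.90). In pair 3 it was 0.427, with an interval from 0.0743 to 1.71, so a change there was not detectable at this depth.

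Btc, the betacellulin gene, stood at 9.40, 1.64 and 0.42 CPM in control samples and at 7.21, 2.29 and 0.997 CPM in anti-Stat3 samples. Pair 1 was again highest in both groups, and its ratio was 0.767 (interval 0.594 to 0.989). Pairs 2 and 3 had ratios of 1.40 and 2.38, whose intervals, 0.832 to 2.35 and 0.881 to 7.03, included 1. The fitted log2 change was -0.12 ± 1.17 in edgeR with the group alone and 0.28 ± 0.43 in blocked DESeq2 (SE, adjusted p = 1.00 and 0.999), and its sign differed between fits.

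Tgfa, the gene of transforming growth factor alpha, was highest in pair 2 and not in pair 1. Control samples held 3.25, 7.36 and 0.36 CPM, and anti-Stat3 samples 2.70, 8.01 and 0.15 CPM. Both samples of a pair were close in pairs 1 and 2, and the ratios of 0.830, 1.09 and 0.427 had counting intervals that all included 1. Pair 3 held 6 and 2 counts. The order of the pairs for Tgfa is that of the summed epithelial markers in each group. Krt19, Krt17 and Csn3 had other orders in both groups, as did Krt14 in the anti-Stat3 samples, and Krt5 was too low to order. The part of epithelial cells in the level of Tgfa was not tested.

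Epgn, the epigen gene, had the lowest mean level per length of the 8 over the 6 samples, with 5 to 20 counts per sample. Control samples held 1.35, 0.79 and 0.30 CPM, and anti-Stat3 samples 0.31, 0.81 and 0.38 CPM. In pair 1 it went from 20 to 5 counts, a ratio of 0.232 (interval 0.0679 to 0.636), and the ratios of 1.02 and 1.28 in pairs 2 and 3 had intervals that included 1. The edgeR log2 change with the group alone was -0.68 ± 0.68 (SE, adjusted p = 1.00), and 0.13 in blocked edgeR without pair 1.

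Nrg1, the neuregulin gene, was steady where the EGF receptor ligands were not. Control samples held 33.1, 37.6 and 30.0 CPM and anti-Stat3 samples 39.7, 41.2 and 22.8 CPM, or 33.5 ± 3.82 and 34.6 ± 10.2 CPM (SD, n = 3 each). The groups overlapped, with the 2 highest values and the lowest value all in anti-Stat3 samples. The ratio was 1.20 in pair 1 (interval 1.06 to 1.35), 1.10 in pair 2 (0.983 to 1.22) and 0.760 in pair 3 (0.656 to 0.879). The blocked DESeq2 log2 change was 0.0068 (adjusted p = 0.999), with a 95% interval from -0.37 to 0.38, which leaves room for a fall to 0.776 or a rise to 1.30 times the control level.

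Egfr, the receptor, was the only member lower in all 3 pairs. Control samples held 218, 232 and 256 CPM and anti-Stat3 samples 205, 206 and 168 CPM, or 235 ± 19.2 and 193 ± 21.9 CPM (SD, n = 3 each). Each anti-Stat3 sample lay below each control sample, and Egfr was the 1 member of 8 whose groups lay apart in this direction, against 2.23% of all tested genes. Of all tested genes, 16.4% were lower in all 3 pairs. The anti-Stat3 level was 94.3%, 88.7% and 65.5% of control, and all 3 counting intervals lay below a ratio of 1 (0.898 to 0.990, 0.847 to 0.930 and 0.622 to 0.690). The difference missed the threshold in edgeR without the block (log2 change -0.29 ± 0.16 SE, adjusted p = 1.00, unadjusted p = 0.12), nor in edgeR with the pair as a block (-0.29, adjusted p = 0.506). The interval in blocked DESeq2 ran from -0.59 to 0.019. Pair 3 carried most of it: without that pair the blocked edgeR log2 change was -0.13.

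**Figure D2:**
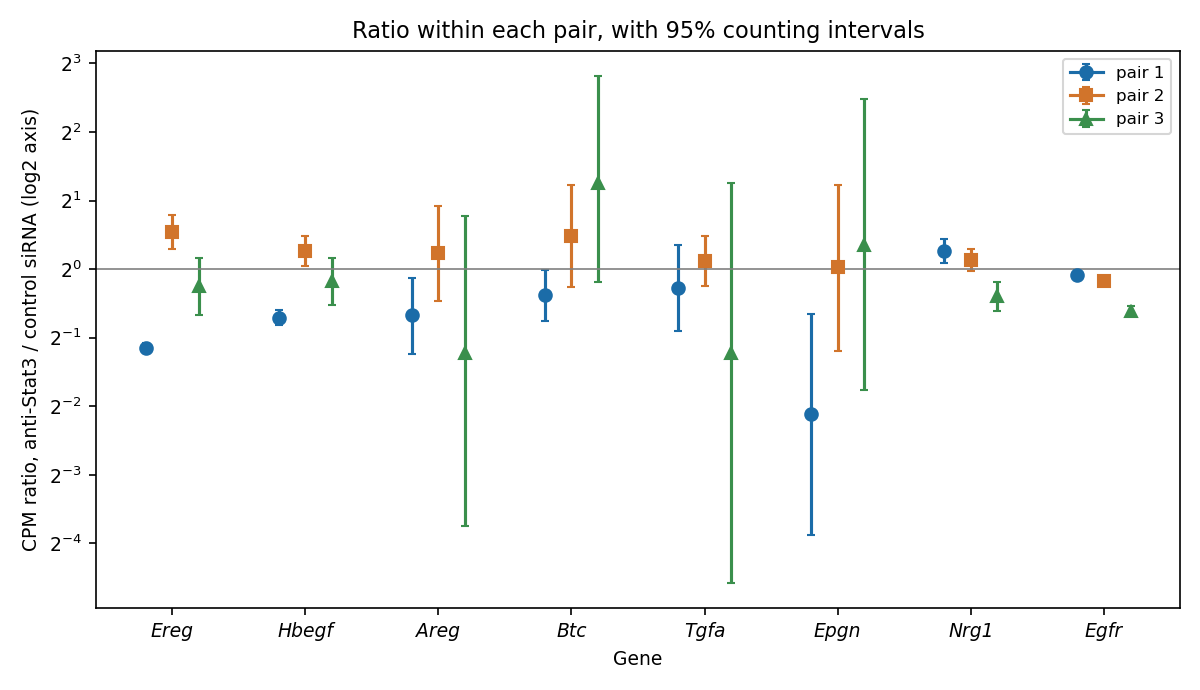
Ratio of the CPM with anti-Stat3 siRNA to that with control siRNA for each gene in each pair (log2 axis), with 95% exact binomial intervals that cover counting error only and a line at 1. The 6 EGF receptor ligands lie below 1 in pair 1 and above it in pair 2, and Egfr lies below 1 in all 3 pairs.

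Read by pair, the 6 ligands of the EGF receptor all lay below control in pair 1 and above it in pair 2, not all beyond counting error. All 6 were lower with anti-Stat3 siRNA in pair 1, and for 5 of them, all but Tgfa, the counting interval of the ratio lay below 1, as it did for 14.1% of all tested genes (above 1 for 13.6%). All 6 were higher in pair 2, where the interval lay above 1 for Ereg and Hbegf and for 22.4% of all tested genes (below 1 for 19.8%). The intervals of Areg, Btc, Tgfa and Epgn in pair 2 included 1, and the ratio of Epgn there was 1.02. In pair 3, 4 were lower and 2, Btc and Epgn, were higher, with all 6 intervals including 1, while those of all tested genes lay below 1 for 25.1% and above 1 for 24.7%. Such intervals are narrow for abundant genes and wide for scarce ones. These directions were the same with DESeq2's size factors and with library totals. Each pair is 1 comparison of 2 libraries, so the differences between pairs were not tested.

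The spread between pairs was large for these ligands beside that of other genes. The SD of log2 CPM among samples of a group, averaged over the 2 groups, was 2.54 for Ereg, 2.26 for Tgfa, 1.72 for Btc, 1.63 for Hbegf and 1.59 for Areg, against a median of 0.31 over all tested genes. Ereg lay at percentile 99.0 of that measure and the other 4 at 95.9 to 98.4, although the counts of Tgfa, Btc and Areg in pair 3 were few. Epgn had 0.74 (percentile 85.1), Nrg1 0.32 (51.5) and Egfr 0.14 (12.8). The highest control of Ereg was 40.5 times the lowest, while for Nrg1 and Egfr these folds were 1.25 and 1.17.

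Levels can be compared between genes only per length, so CPM were divided by the length of all exons of each gene in GENCODE M21. Averaged over the 6 samples, the order was Ereg at 19.7 ± 29.0 CPM per kilobase (kb), Egfr at 18.9 ± 2.61, Hbegf at 8.88 ± 9.32, Nrg1 at 3.29 ± 0.67, Areg at 1.79 ± 1.38, Btc at 0.81 ± 0.82, Tgfa at 0.56 ± 0.52 and Epgn at 0.36 ± 0.23 (SD, n = 6 samples in 3 pairs). No 2 neighbours in that order kept it in all 6 samples. Ereg was above Egfr in 2 of 6 samples, those of pair 1, and Hbegf was above Nrg1 in 4 of 6. Egfr was above Nrg1 in 6 of 6 samples.

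**Figure D3:**
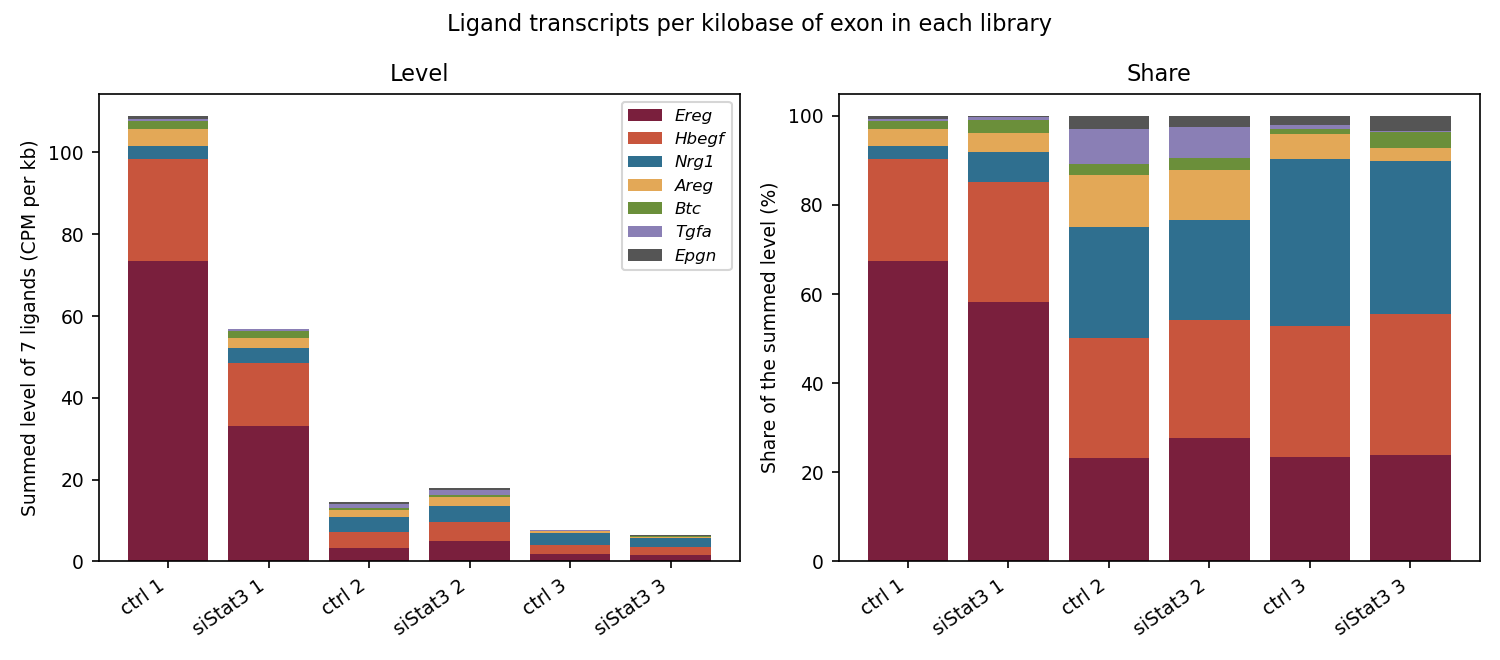
Summed level of the 7 ligand transcripts per kb of exon in each library (left, stacked bars in CPM per kb) and the share of each ligand in that sum (right, percent), with control (ctrl) and anti-Stat3 (siStat3) libraries of a pair side by side. Ereg takes 58.2% to 67.4% of the sum in pair 1 and 23.3% to 27.7% in pairs 2 and 3, where Nrg1 takes 22.3% to 37.4%.

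The ligand makeup also differed by pair. The summed level of the 7 ligands was 109, 14.6 and 7.75 CPM per kb in the controls and 56.9, 17.8 and 6.39 CPM per kb after anti-Stat3 siRNA, which is 52.2%, 122% and 82.4% of control in pairs 1 to 3. Ereg and Hbegf made up most of it in pair 1, with 67.4% and 22.9% in the control. In pair 3 Nrg1 had the largest share, with 37.4% in the control and 34.5% in the anti-Stat3 sample, at 2.90 and 2.20 CPM per kb against 3.20 and 3.83 CPM per kb in pair 1. Areg took 11.7% and 11.2% in pair 2 and 2.97% to 5.73% in pairs 1 and 3. With the longest transcript as the length, the level of Nrg1 in the controls was 6.19 in place of 3.24 CPM per kb and that of Hbegf 17.4 in place of 10.4, and Nrg1 then led in control sample 2 as well as in pair 3. The authors' gene models were of build mm9, so these lengths are approximate.

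The other ERBB receptors and ligands were measured beside the members. Per kb, Egfr was above Erbb2 and Erbb2 above Erbb3 in 6 of 6 samples. Erbb2 had 6.48, 14.6 and 6.96 CPM per kb in the controls and 5.82, 12.2 and 6.89 CPM per kb after anti-Stat3 siRNA. Erbb3, a receptor of neuregulins, had 0.20, 3.08 and 0.29 CPM per kb and 0.36, 2.92 and 0.20 CPM per kb. Both were highest in pair 2, the pair with the highest summed epithelial markers, and the part of epithelial cells or of reads from the rat transgene was not tested. Erbb4, the other receptor of neuregulins, had 1 count in control sample 2 and 0 in the other 5 samples, where 3 counts, the limit that a count of 0 allows, are 0.18 to 0.23 CPM. Egf, Nrg2 and Nrg4 were at 0 to 0.28 CPM per kb, and Nrg3 had counts in 1 of 6 samples. With the longest transcript as the length, the control means of Egf and Nrg4 were 0.302 and 0.283 in place of 0.128 and 0.0975 CPM per kb.

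Of 70 other genes of the pathway, listed by role, 66 passed the filter and 0 were called in edgeR with the group alone (0 at an unadjusted p under 0.05) or with the pair as a block (7 of 66 at an unadjusted p under 0.05, where 10.8% of all tested genes were). Among the 7 other ligands and receptors, 4 were tested and 0 called. Among 12 genes that shed or process the ligands, 11 were tested and 0 called. Adam17 and Adam10, the main sheddases, had log2 changes of -0.08 and 0.09 in edgeR with the group alone, Adam12 had -0.51 ± 0.34, Bace1 -0.28 ± 0.16 and Timp3, which inhibits such proteases, 0.24 ± 0.19 (SE). Among 11 genes that restrain the receptors 0 were called: Lrig2 had -0.34 ± 0.22, Errfi1, which binds and inhibits the EGF receptor kinase, -0.26 ± 0.19, and Socs5 -0.22 ± 0.18 (SE). Among 22 adaptors, kinases and other signalling genes below the receptors 0 were called, with Braf at -0.39 ± 0.30 and Plcg1 at -0.18 ± 0.17 (SE).

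Of 18 genes known to be induced by growth factors through RAS and ERK, blocked DESeq2 called 1 lower, where 0.783% of all tested genes were, and 0 higher, where 0.873% were. It was Ier3, an immediate early gene, with 297, 93.9 and 59.8 CPM in control samples and 177, 69.2 and 39.1 CPM in anti-Stat3 samples (log2 change -0.60 ± 0.14 SE, DESeq2 adjusted p = 0.0037). It was lower in all 3 pairs. It did not pass in blocked edgeR (adjusted p = 0.16), nor in blocked DESeq2 without pair 1, 2 or 3 (adjusted p = 0.283, 0.284 and 0.587). Fos, another immediate early gene, had a log2 change of -0.56 ± 0.21 in blocked DESeq2 (SE, adjusted p = 0.196). Without pair 1, blocked edgeR called Ccnd1, the cyclin D1 gene, and Etv4, a transcription factor of the ETS family, as higher (log2 changes of 0.93 and 0.88, adjusted p = 0.003 and 0.0099), in a fit that called 3.02% of all genes higher. Blocked DESeq2 without pair 1 called Ccnd1 (adjusted p = 3.0e-04) and not Etv4 (adjusted p = 0.075), in a fit that called 274 genes higher and 158 lower. Over all 3 pairs neither passed, and their changes in pair 1 were -0.08 and -0.35. Spred2 and Myc had log2 changes of -0.22 ± 0.21 and -0.22 ± 0.26 in edgeR with the group alone (SE) and were not called.

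**Figure D4:**
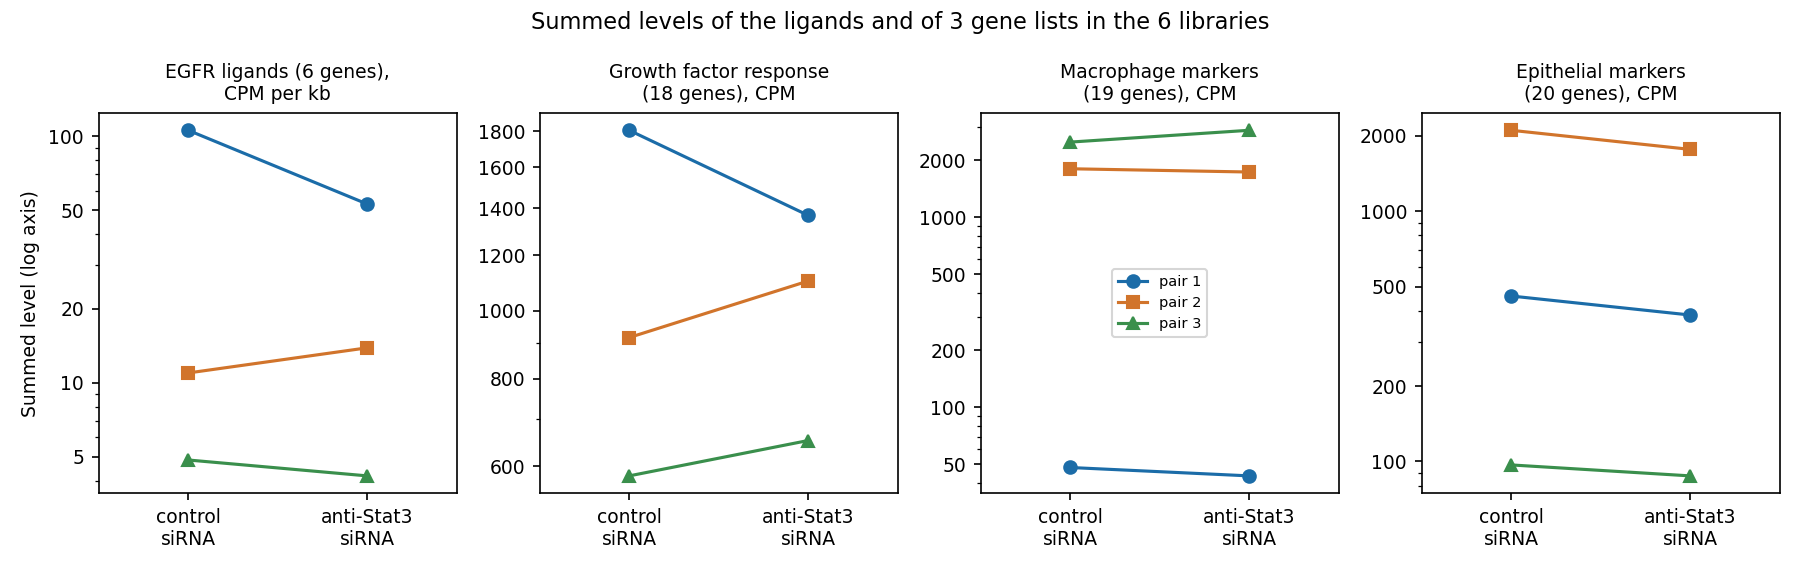
Summed level in each library of the 6 EGF receptor ligands (CPM per kb) and of 3 gene lists (CPM): 18 growth factor response genes, 19 macrophage markers and 20 epithelial markers, on log axes, with a line joining the libraries of a pair. The ligands and the response genes are highest in pair 1 and lowest in pair 3, the macrophage markers are lowest in pair 1, and the epithelial markers are highest in pair 2.

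The summed levels of the response genes and of the EGF receptor ligands had the same order of pairs in both groups. The 18 response genes summed to 1807, 916 and 582 CPM in control samples and to 1367, 1102 and 653 CPM in anti-Stat3 samples. The 6 ligands summed to 106, 10.95 and 4.86 CPM per kb and 53.1, 13.9 and 4.19 CPM per kb. Both sums were lower with anti-Stat3 siRNA in pair 1 and higher in pair 2, and in pair 3 the response sum was higher and the ligand sum lower. The median level of the response genes did not have that order in the anti-Stat3 samples, where it was 48.4, 52.3 and 28.9 CPM, against 56.6, 49.1 and 25.5 CPM in the controls. The medians of the pair changes of the response genes were -0.37, 0.12 and 0.12. The summed macrophage markers had the reverse order of pairs in both groups. Lyz2 was the largest part of that sum in pairs 2 and 3, at 1208 and 1198 CPM and at 1614 and 1907 CPM. The median of the markers that passed the filter had that order too, at 0.27, 33.9 and 60.6 CPM in control samples and 0.41, 29.8 and 56.4 CPM in anti-Stat3 samples. Cd14, Cd163, Aif1 and Cx3cr1 had other orders in control samples, as did Itgam, Cd163 and Aif1 in anti-Stat3 samples. In pair 1, where Ereg and Hbegf were highest, Cd14 had 24.2 and 19.2 CPM in the control and anti-Stat3 samples, Lyz2 10.96 and 11.7, Csf1r 6.09 and 5.89 and Cd68 2.44 and 1.63, and the other 15 markers had 0 to 1.00 CPM. The part of macrophages or other cell types in the order of the pairs was not tested.

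Genes whose profile over the 6 samples was most like that of a member were found by the root mean square difference of log2 CPM, each centred on its own mean, among genes whose log2 CPM averaged 1 or more. The 6 points of a profile are 3 pairs, so this likeness mostly describes the pairs. For Ereg they were Il11, a cytokine of the IL-6 family, Cxcl2, a neutrophil chemokine, and Kcnq5, with differences of 0.32, 0.42 and 0.54. Il11 stood at 470, 17.2 and 8.21 CPM in control samples and at 243, 19.0 and 6.75 CPM in anti-Stat3 samples. Cxcl2 stands on the same stretch of chromosome 5 as the ligands, and Mthfd2l, the protein-coding gene next to Epgn, had 10.1, 8.52 and 9.59 CPM in control samples and 9.40, 6.60 and 9.28 CPM in anti-Stat3 samples. For Hbegf the most alike were Dusp5, a phosphatase that acts on ERK, Tnfaip3, an inhibitor of NF-kB signalling, and Hcar2 (0.18, 0.19 and 0.22). For Areg they were Ccbe1, Dio2 and Pgf, a growth factor of the VEGF family (0.23, 0.26 and 0.31), and for Btc they were Cd40, Ass1 and Egr1 (0.27, 0.29 and 0.36). For Tgfa they were Fermt1, Ildr1 and Prlr, the prolactin receptor (0.21, 0.23 and 0.31), and for Epgn they were Myzap, Echdc3 and Osbpl6 (0.32, 0.36 and 0.37). Nrg1 was most like Eif5a2, Jade1 and Usp54 (0.036, 0.059 and 0.069), and Egfr most like Plxnd1, Mdc1 and Suv39h1 (0.042, 0.050 and 0.053). A gene that varies little is near many others by this measure.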

How the data were processed

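RNA was selected for poly(A) and made into TruSeq libraries, per the labels' protocols. The deposited table holds the authors' raw counts for each symbol, made with TopHat2 2.0.10, HTSeq and build mm9, per the submitters' processing notes. Strand use in counting is not stated in those notes. The table's columns write "sh" where the titles write "si" and were matched to samples by group and number.

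Tests were run in R 4.3.3 with edgeR 4.0.16, as its quasi-likelihood F test (TMM scaling, filterByExpr at min.count 10 and min.total.count 15, the group as the only term, Benjamini-Hochberg over all 13284 genes tested, threshold 0.05). DESeq2 1.42.0, limma-voom (limma 3.58.1), a replicate block, other scalings, no filter and left-out samples were alternatives, 21 fits in all. The fits were tested on simulated data. The edgeR test gives no SE, so the SE printed with an edgeR log2 change is approximate. It is the size of that change divided by the square root of its F statistic. Log2 CPM used a prior count of 2. A count of 3 was taken as the limit of detection, 0.16 to 0.23 CPM per sample. Exact permutation tests over 3 samples a group cannot pass 0.05 and were not used. Across genes, the deviations of same-numbered samples from their group means had correlations of 0.83, 0.82 and 0.83, and those of other samples of the 2 groups -0.55 to -0.16, so the numbers were taken to pair the samples. The labels do not say what a number shares.

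The members and lists were chosen with earlier results of these data known. The named genes were, by rule, the 8 members, Stat3, the 3 genes most like each member, and of each pathway list those called in any fit and up to 3 with the smallest p, of which 1 is not reported here. Adam10, Adam17, Erbb3, Erbb4, Nrg2, Nrg3, Mthfd2l and the markers named by level were added after their values were seen. Promoters are RefSeq's, of GRCm38.p6, and lengths are from GENCODE M21 of the same build. No coordinates were taken from the counts, which are by symbol.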

Additional observations from a re-analysis of the deposited data

How the results depend on the processing

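Of the members fitted, 0 were called under each of the 21 fits (7 fitted without pair 2 in the blocked fits, where Epgn did not pass the filter, and 8 otherwise). DESeq2 gave Ereg no p with the group alone. It gave no adjusted p for Epgn with the replicate block, or for Areg and Tgfa with the block and without pair 2. These genes could not be called there. At an unadjusted p under 0.05, blocked edgeR had 2 of 7 without pair 2 (Ereg and Hbegf) and 1 of 8 without pair 1 (Egfr). Blocked DESeq2 without pair 2 had 1 of 7 (Ereg), and the other fits had 0. The shares of all genes at that p in these left-out fits are not given, so these counts are not read as a result. With all 3 pairs the shares were 10.8% in blocked edgeR and 8.05% in blocked DESeq2. Over all genes the count called was 0 in edgeR with the group alone, 17 in DESeq2 with the group alone, 8 with the replicate block in edgeR and in limma-voom, and 220 with the replicate block in DESeq2. With samples or pairs left out it ran from 0 to 703, the highest without pair 1 in blocked edgeR, which called 3 and 0 without pairs 2 and 3, while blocked DESeq2 called 432, 14 and 20. It was 40 without control sample 1 in edgeR with the group alone. Of the pathway genes 1 was called in DESeq2 with the replicate block, and 0 to 2 with samples or pairs left out. Where the sign of a member's log2 change turned, the cause was not tested. For Btc it was 0.14 in edgeR and 0.28 in DESeq2 with the replicate block, and 0.18 with the naming scheme of the descriptions as a batch term. That scheme sets apart pair 3 alone, whose own changes the report gives. For Tgfa it was 0.0019 with library totals. With samples or pairs left out, the log2 changes ran from -0.88 to 0.53 for Areg, -3.02 to 2.33 for Ereg, -1.63 to 1.24 for Hbegf, -0.12 to 0.27 for Nrg1, -1.21 to 1.75 for Btc, -1.36 to 1.01 for Tgfa and -1.21 to 0.18 for Epgn. Egfr kept its sign (-0.39 to -0.12), as did Stat3 (-2.55 to -2.03). The pairing changed no call of a member, and Stat3 had an adjusted p of 1.00 in edgeR without the replicate block and 0.0027 with it. A prior count of 0.5 and the other scalings, the latter added after the data were seen, moved no mean pair change by over its SD. Depth limits Epgn in all pairs and Areg, Btc and Tgfa in pair 3.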
